A study of Mus musculus with 24 samples.

Results

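The cytochrome P450 genes of the Cyp4a cluster and the vanins were examined in livers of male mice of 3 inbred strains. The 8 genes are Cyp4a10, Cyp4a14, Cyp4a12a, Cyp4a12b, Cyp4a31, Cyp4a32, Vnn1 and Vnn3. Their probes were taken by gene name, and the genes were chosen by the signals of Vnn1 and Cyp4a14 on the deficient diet on these same arrays, which were already known. The values of the 8 genes are therefore given as a description, without a test. All 8 were measured, by 12 probes of 55681 gene probes, and they are 8 of the 15531 genes that were tested.

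Livers of A/J, C3H/HeJ and WSB/EiJ mice were profiled on single-colour arrays, 24 in all, with 4 per strain and diet. Mice went on their diet at 8 weeks of age and stayed on it for 12 weeks, so they were 20 weeks old at collection. The choline- and folate-deficient diet held 0.17% methionine and no choline or folic acid. For control mice the same iron-supplemented amino acid diet was supplemented with folic acid (2 mg/kg), choline bitartrate (0.3%) and methionine (0.4%). By its title, the study relates the strains' unequal liver damage to genes of lipid metabolism. The labels name the replicates as separate samples but do not say that each is a separate animal, so the spread between arrays may be technical.

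Cyp4a enzymes sit in the endoplasmic reticulum and add a hydroxyl group to the terminal carbon of fatty acids, the first step of omega-oxidation. Cyp4a10 and Cyp4a14 are textbook targets of PPAR-alpha, the nuclear receptor that senses fatty acids in the hepatocyte. Cyp4a12a and Cyp4a12b are known in mouse liver and kidney as enzymes with higher levels in males. Vanins are pantetheinases, which split pantetheine, a breakdown product of coenzyme A, into pantothenate (vitamin B5) and cysteamine. Hepatic Vnn1 is also a known PPAR-alpha target.

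Several of these genes are near-identical copies, and the probe sequences show how far the array can separate them. Probe positions are those of mouse build NCBI37 (mm9) in the array files. The pair below lies within the transcripts of Cyp4a10 (probe A_55_P2092030, chr4:115198463-115198522, transcript base 1193) and Cyp4a31 (probe A_55_P1952399, chr4:115243923-115243982, transcript base 1158), both on the plus strand. Capitals mark the bases that differ.
Cyp4a10, A_55_P2092030: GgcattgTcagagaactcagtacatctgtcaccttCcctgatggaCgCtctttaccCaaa
Cyp4a31, A_55_P1952399: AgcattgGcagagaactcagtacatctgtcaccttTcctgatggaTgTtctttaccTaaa
These share 54 of 60 bases, 90.0%. The differences, counted from 1 at the 5′ end of the Cyp4a10 probe, are G1A, T8G, C36T, C46T, C48T and C57T.

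The brightest probes of the same genes, A_51_P254895 for Cyp4a10 and A_55_P2050628 for Cyp4a31 (chr4:115251553-115251612), overlap near the end of the transcript. They share 44 of 47 overlapping bases, 93.6%. The 30 bases at the end of the overlap are shown, again with the differing bases in capitals.
Cyp4a10, A_51_P254895: ccctcctttctgcaataaagTtccCagtgt
Cyp4a31, A_55_P2050628: ccctcctttctgcaataaagGtccAagtgt
Other probes name more than 1 gene in their annotation. Probe A_55_P2092030 lists transcripts of Cyp4a10 and Cyp4a32, probe A_55_P2024033 (chr4:115242872-115242931) lists Cyp4a31 and Cyp4a10, and the Cyp4a12a probe A_55_P2043083 (chr4:115005258-115005317) also lists Cyp4a12b. Outside these genes, 0 of the 55681 probes shared 20 bases in a row with any of the 12. The values below therefore belong to probes, and Cyp4a10, Cyp4a31 and Cyp4a32 cannot be fully told apart, nor can Cyp4a12a and Cyp4a12b.

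The remaining probes are single. Cyp4a14 is read by A_51_P238576 on the minus strand (chr4:115158914-115158973), Cyp4a12b by A_55_P2152607 (chr4:115111580-115111639) and Cyp4a32 by A_55_P1987620 (chr4:115294852-115294911). Vnn1 is read by A_51_P424532 (chr10:23624524-23624583) and Vnn3 by A_51_P265374 (chr10:23587033-23589353), a span longer than the probe itself. Cyp4a14 was well above background on 3 of 4 arrays in the C3H/HeJ control and WSB/EiJ control groups. Every other probe of the 12 was well above background on all 24 arrays.

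Levels are log2 processed signals minus the array's 75th percentile, so 0 is the 75th percentile of the array, and levels of different probes are not compared. Differences are log2 levels on the deficient diet minus the control diet, and ± marks limma's standard error for 4 arrays against 4. On single arrays, 44.4% to 56.0% of spots passed the scanner's background test, and all 12 hepatocyte markers did so on all 24 arrays. The 75th percentile itself was higher on the deficient diet, at log2 signals of 8.13 to 8.30 against 7.15 to 7.29 in WSB/EiJ and 7.64 to 8.25 against 7.10 to 7.59 in C3H/HeJ, while in A/J (7.47 to 7.98 against 7.44 to 7.63) the groups overlapped. Scaling on spike-in RNA in place of the percentile therefore moved the median difference of all genes from -0.05 to 0.31 in A/J, from -0.12 to 0.37 in C3H/HeJ and from -0.29 to 0.58 in WSB/EiJ. The share of genes called for diet that were higher was 57.3% in A/J, 40.1% in C3H/HeJ and 34% in WSB/EiJ. It was 95.8%, 91.9% and 87.5% with spike-in scaling, 61.9%, 52.3% and 49.6% with quantile normalization, and 75%, 48.4% and 43.9% with median centring. A mean over 6109 genes, those called for diet in the same direction in both other strains, placed the A/J arrays of control replicate 4 (-0.09) and deficient replicate 4 (-0.11) together, where the other A/J arrays ran from -0.41 on the control diet to 0.34 on the deficient diet. A/J values are given with and without that pair where it matters.

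**Figure D1:**
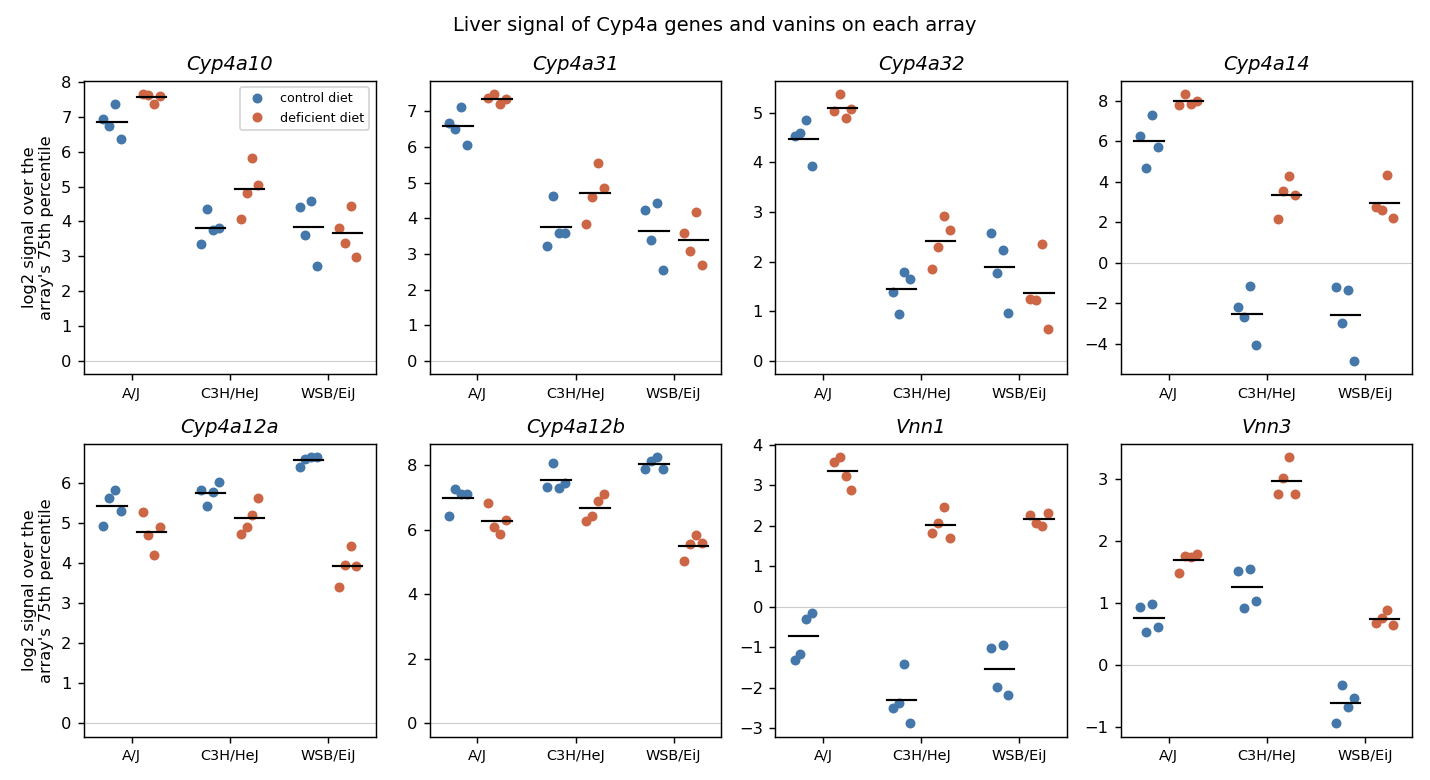
Log2 level of the brightest probe of each gene on every array, over the array's 75th percentile (y axis, own range in each panel), by strain (x axis) and diet (colour). Points are single arrays and lines the means of 4. Cyp4a14 and Vnn1 stand higher on the deficient diet in all 3 strains with no overlap, and Cyp4a12a and Cyp4a12b stand lower without overlap in WSB/EiJ.

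Vnn1, the hepatic pantetheinase, was higher on the deficient diet in every strain. In A/J its levels were -1.32, -1.17, -0.30 and -0.15 on the control diet and 2.89, 3.23, 3.57 and 3.70 on the deficient diet. In C3H/HeJ they were -2.89, -2.50, -2.39 and -1.41 against 1.69, 1.82, 2.06 and 2.47. In WSB/EiJ they were -2.18, -1.98, -1.02 and -0.94 against 1.99, 2.08, 2.27 and 2.31. The lowest deficient array thus exceeded the highest control array by a wide margin in each strain. The difference was 4.08 ± 0.33 in A/J (16.9-fold), 4.31 ± 0.33 in C3H/HeJ (19.8-fold) and 3.69 ± 0.33 in WSB/EiJ (12.9-fold). Between strains these values differed by -0.61 to 0.23, with a standard error of 0.46. Within single slides, each of which held both diets of each strain, it ran from 3.22 to 4.97. Normexp background correction with quantile normalization gave the lowest values, 3.58, 3.13 and 2.98 in A/J, C3H/HeJ and WSB/EiJ. Without the replicate 4 pair the A/J difference was 4.43.

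Vnn3, the second vanin on the array, was also higher on the deficient diet in every strain, by less. Its levels in A/J were 0.54, 0.61, 0.93 and 0.98 on the control diet and 1.49, 1.74, 1.76 and 1.79 on the deficient diet. C3H/HeJ gave 0.92, 1.03, 1.52 and 1.54 against 2.76, 2.76, 3.01 and 3.35, and WSB/EiJ gave -0.94, -0.68, -0.53 and -0.32 against 0.65, 0.67, 0.76 and 0.89. The groups did not overlap in any strain. Differences were 0.93 ± 0.16 in A/J, 1.72 ± 0.16 in C3H/HeJ and 1.36 ± 0.16 in WSB/EiJ, that is between 0.79 and 2.09 within single slides. Unlike Vnn1, Vnn3 was lowest in WSB/EiJ: its deficient group there (0.74 ± 0.11, SD, n = 4) lay beside the A/J control group (0.76 ± 0.22, SD, n = 4).

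Vanins are also made by blood and gut cells, and markers of some of these moved with the diet. Of 13 macrophage and monocyte markers, 6 rose in A/J, 10 in C3H/HeJ and 12 in WSB/EiJ (limma, adjusted p under 0.05). Of all tested genes, 5.92%, 18.1% and 24.6% rose and 4.42%, 27.1% and 47.6% fell in these strains. The summed linear level of the 13 markers went from 97 to 150 on control arrays to 154 to 205 on deficient arrays in A/J, from 63.5 to 80.4 to 114 to 208 in C3H/HeJ, and from 32.5 to 35.8 to 236 to 291 in WSB/EiJ. Of 6 neutrophil markers, 4 were tested, and in A/J, C3H/HeJ and WSB/EiJ 0, 0 and 1 rose and 1, 2 and 2 fell. Among 6 intestinal markers, Vil1 and Fabp2 were tested, of which 1, 2 and 2 rose, and Alpi, Muc2 and Cdx2 were well above background on 0 of 24 arrays. These marker counts and sums are given with percentile scaling alone, and their dependence on the scaling was not tested. The part of other cells in the vanin signals was not tested. In whole liver a change in the number of cells of a type and in the RNA per cell cannot be told apart.

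Cyp4a14, the fatty acid hydroxylase that PPAR-alpha agonists are known to induce, had the widest range of the 8 genes. A/J control livers already read 4.68, 5.69, 6.28 and 7.31, against 7.80, 7.85, 7.97 and 8.31 on the deficient diet. In C3H/HeJ the control levels were -4.06, -2.67, -2.18 and -1.12 and the deficient levels 2.15, 3.34, 3.52 and 4.28. WSB/EiJ control levels were -4.83, -2.99, -1.33 and -1.20 and deficient levels 2.22, 2.62, 2.73 and 4.33. The deficient groups lay above the control groups without overlap in all strains, yet the highest deficient array of C3H/HeJ or WSB/EiJ was below the lowest A/J control array. The difference was 1.99 ± 0.73 in A/J (3.97-fold), 5.83 ± 0.73 in C3H/HeJ (56.8-fold) and 5.56 ± 0.73 in WSB/EiJ (47.2-fold). Those of C3H/HeJ and WSB/EiJ rest partly on control signals near background, and within single slides they ran from 3.80 to 7.87 and from 3.62 to 7.32. With normexp background correction and quantile normalization they were 4.56 and 4.27. The C3H/HeJ and WSB/EiJ differences exceeded that of A/J by 3.84 ± 1.04 and 3.57 ± 1.04.

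Cyp4a10, the other classical target, and its copies Cyp4a31 and Cyp4a32 differed less between diets. On the brightest Cyp4a10 probe, A/J levels were 6.37, 6.74, 6.95 and 7.37 on the control diet and 7.37, 7.59, 7.64 and 7.65 on the deficient diet. The highest control and lowest deficient arrays met at 7.37, equal to 2 decimals, and are counted below as not overlapping because the deficient array was higher in the next decimal. C3H/HeJ levels were 3.36, 3.75, 3.81 and 4.36 against 4.06, 4.83, 5.06 and 5.81, with 1 deficient array inside the control range. WSB/EiJ levels were 2.72, 3.62, 4.41 and 4.58 against 2.99, 3.39, 3.81 and 4.45, which overlapped throughout. Differences were 0.71 ± 0.39, 1.12 ± 0.39 and -0.17 ± 0.39 in A/J, C3H/HeJ and WSB/EiJ. The WSB/EiJ value was 0.22 with quantile normalization and 0.70 with spike-in scaling, so it has no settled sign.

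The brightest Cyp4a31 probe gave nearly the same profile as that of Cyp4a10, with differences of 0.76 ± 0.41 in A/J, 0.95 ± 0.41 in C3H/HeJ and -0.26 ± 0.41 in WSB/EiJ. Its A/J groups ran from 6.05 to 7.12 and from 7.21 to 7.48 and did not overlap. Cyp4a32, the third copy, had A/J levels from 3.92 to 4.85 on the control diet and from 4.89 to 5.37 on the deficient diet. Its C3H/HeJ groups (0.95 to 1.78 against 1.85 to 2.91) also lay apart, whereas in WSB/EiJ they overlapped (0.97 to 2.58 against 0.64 to 2.36). The Cyp4a32 differences were 0.62 ± 0.34, 0.98 ± 0.34 and -0.52 ± 0.34. In WSB/EiJ the Cyp4a31 and Cyp4a32 values also turned positive with spike-in scaling, to 0.61 and 0.35.

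The other probes of Cyp4a10 and Cyp4a31 gave other values, as the pair printed first above shows in WSB/EiJ. There the Cyp4a31 probe A_55_P1952399 read 3.14, 3.15, 3.17 and 3.30 on the control diet and 1.03, 1.13, 1.5 and 2.18 on the deficient diet, a difference of -1.73 with no overlap. The Cyp4a10 probe A_55_P2092030, which differs from it at 6 bases, read 2.01, 2.29, 2.63 and 2.67 against 1.02, 1.40, 1.44 and 2.45, a difference of -0.82 with overlap. In C3H/HeJ A_55_P1952399 gave 0.05 and A_55_P2092030 gave 0.78. By contrast, the Cyp4a10 probe A_55_P2011111 (chr4:115206150-115206209) gave 2.01 in C3H/HeJ and 0.52 in WSB/EiJ, and the Cyp4a31 probe A_55_P2024033 gave 1.73 and 0.28, both without overlap in C3H/HeJ. The direction in WSB/EiJ therefore depends on the probe for both genes, while all 6 probes gave positive values in A/J, from 0.50 to 0.94. Binding of a paralogue's transcripts to these probes was not tested.

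**Figure D2:**
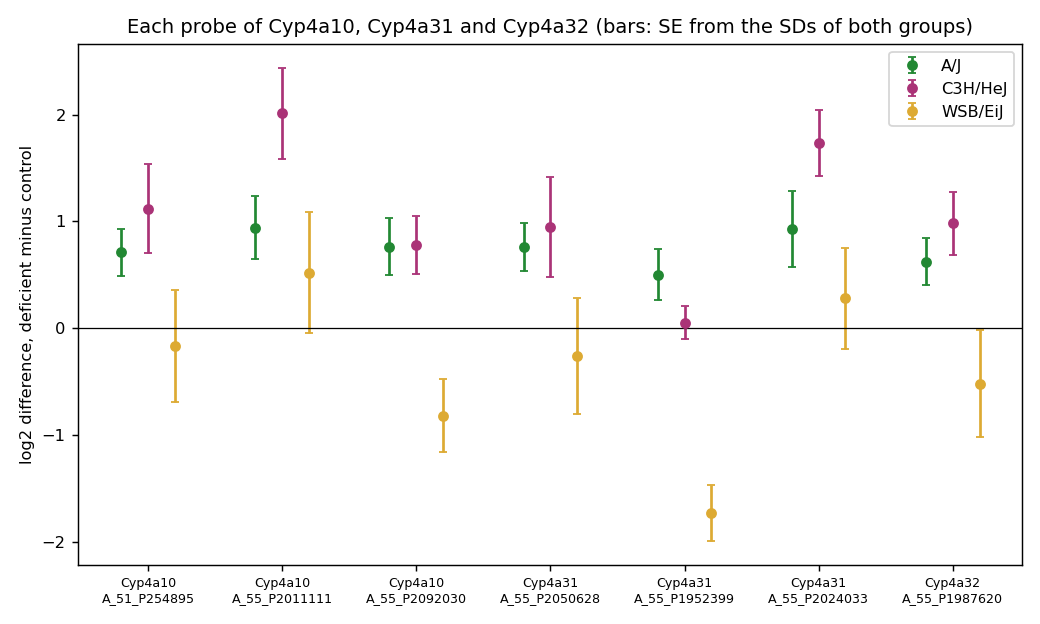
Log2 difference, deficient minus control (y axis), for each of the 7 probes of Cyp4a10, Cyp4a31 and Cyp4a32 (x axis) in the 3 strains (colour). Bars are standard errors from the SDs of the compared groups (n = 4 arrays each). The values of WSB/EiJ range from -1.73 to 0.52 across probes, and those of A/J from 0.50 to 0.94.

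Cyp4a12a and Cyp4a12b, the male-predominant hydroxylases, were lower on the deficient diet, most of all in WSB/EiJ. Levels of Cyp4a12a there were 6.39, 6.60, 6.63 and 6.64 on the control diet and 3.41, 3.93, 3.96 and 4.42 on the deficient diet. In A/J they were 4.92, 5.30, 5.62 and 5.82 against 4.21, 4.70, 4.90 and 5.27, and in C3H/HeJ 5.42, 5.77, 5.81 and 6.01 against 4.73, 4.90, 5.20 and 5.62. The groups stood apart in WSB/EiJ and overlapped in A/J and C3H/HeJ. The difference was -2.63 ± 0.24 in WSB/EiJ, a level 6.21-fold lower, and -0.64 ± 0.24 in each of the other strains. Cyp4a12b gave -0.69 ± 0.24 in A/J, -0.87 ± 0.24 in C3H/HeJ and -2.53 ± 0.24 in WSB/EiJ, and its C3H/HeJ groups (7.31 to 8.09 against 6.28 to 7.12) did not overlap. The WSB/EiJ value differed from that of A/J by -1.99 ± 0.34 for Cyp4a12a and -1.84 ± 0.34 for Cyp4a12b. Both genes stayed lower under each scaling tried, with the WSB/EiJ difference between -2.68 and -1.76 for Cyp4a12a and between -2.60 and -1.67 for Cyp4a12b. The smaller differences of the other strains shrank to as little as -0.29 in A/J and -0.15 in C3H/HeJ for Cyp4a12a. For Cyp4a12b they shrank to -0.34 and -0.35.

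**Figure D3:**
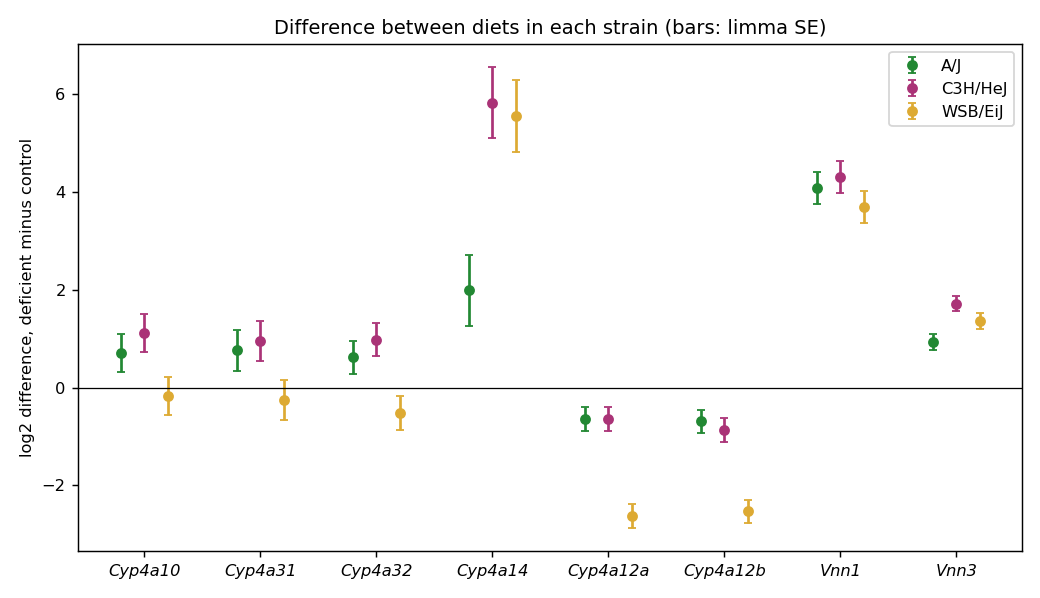
Log2 difference between diets (y axis, deficient minus control) for the brightest probe of each gene (x axis) in the 3 strains (colour), with bars of ± 1 limma standard error (n = 4 arrays per group). Vnn1 lies between 3.69 and 4.31 in all strains, Cyp4a14 at 1.99 in A/J and above 5 in C3H/HeJ and WSB/EiJ, and Cyp4a12a and Cyp4a12b furthest below 0 in WSB/EiJ.

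Counted over the 8 genes by their brightest probes, 6 were higher and 0 lower without overlap in A/J, where 8.45% and 9.42% of all tested genes were higher and lower. The 6 include Cyp4a10, whose groups touched. In C3H/HeJ 4 were higher and 1 lower, against 14.9% and 17.9% of all genes. In WSB/EiJ 3 were higher and 2 lower, against 23.2% and 45.2%. The median difference over the 8 genes was 0.73 in A/J, 1.05 in C3H/HeJ and -0.22 in WSB/EiJ, and over all genes -0.05, -0.12 and -0.29. Because the genes were chosen with part of this response known, nothing is read from these counts. In A/J both Cyp4a12 genes stood apart once control replicate 1 or deficient replicate 1 was left out, which gave 2 lower. C3H/HeJ had 2 lower without control replicate 2 or deficient replicate 4. Leaving out the A/J replicate 4 pair left 6 higher and 0 lower.

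The strains also differed on the control diet, where the Cyp4a10 group and Cyp4a14 were highest in A/J. The log2 difference of Cyp4a14 from A/J was -8.49 ± 0.73 in C3H/HeJ and -8.58 ± 0.73 in WSB/EiJ, a level 361-fold and 382-fold lower on control signals that were well above background on 3 of 4 arrays in each of these strains. Under the alternatives tried these differences shrank to as little as -7.12 and -7.04. Cyp4a10 was 8.2-fold lower in C3H/HeJ and 8.13-fold lower in WSB/EiJ, Cyp4a31 7.13-fold and 7.72-fold, and Cyp4a32 8.2-fold and 6.03-fold. None of these groups overlapped with A/J. All probes of Cyp4a10 and Cyp4a31 were lower than in A/J, the smallest differences being -1.54 in C3H/HeJ and -0.84 in WSB/EiJ on A_55_P1952399. Sequence differences between the strains under these probes were not tested. On the brightest probes, C3H/HeJ and WSB/EiJ overlapped each other in all 4 of these genes, with differences from -0.11 to 0.44. On the deficient diet the difference from A/J was -4.66 ± 0.73 and -5.01 ± 0.73 for Cyp4a14, while for Cyp4a10 it was -2.62 ± 0.39 in C3H/HeJ and -3.90 ± 0.39 in WSB/EiJ.

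Cyp4a12a and Cyp4a12b had the opposite order on the control diet. WSB/EiJ was above A/J by 1.15 ± 0.24 for Cyp4a12a and 1.07 ± 0.24 for Cyp4a12b, both without overlap. On the deficient diet WSB/EiJ was the lowest strain, at -0.84 ± 0.24 and -0.77 ± 0.24 relative to A/J, although the Cyp4a12a groups overlapped there. Vnn1 on the control diet differed from A/J by -1.56 ± 0.33 in C3H/HeJ, without overlap, and by -0.80 ± 0.33 in WSB/EiJ, with overlap. Vnn3 was highest in C3H/HeJ, and WSB/EiJ differed from it by -1.87 ± 0.16 on the control diet and -2.23 ± 0.16 on the deficient diet.

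On the control diet, 1 of the 8 genes was higher and 5 lower in C3H/HeJ than in A/J without overlap, where 16.7% and 10.7% of all genes were higher and lower. In WSB/EiJ relative to A/J 2 were higher and 5 lower, against 29.3% and 17.3%, and in WSB/EiJ relative to C3H/HeJ 1 and 1, against 24.1% and 18.2%. On the deficient diet the corresponding counts were 1 and 5 (11.2% and 9.77%), 0 and 7 (23.6% and 32.3%), and 0 and 3 (18.9% and 24.1%). The comparisons within a diet share arrays. The values of Cyp4a14 and the Cyp4a10 group relative to A/J kept their sign under each alternative normalization, between -8.85 and -7.04 for Cyp4a14 and between -3.30 and -2.46 for the others.

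Over the 24 arrays, the genes with the most similar profiles were found by the root mean square difference between log2 levels, each gene centred on its mean. Cyp4a10 and Cyp4a31 lay 0.11 apart, on brightest probes that share most of their bases, and Cyp4a32 lay 0.35 from Cyp4a10. The nearest gene outside the family, A230038B01Rik, lay 0.75 from Cyp4a10, but it was well above background on 0 arrays of C3H/HeJ and WSB/EiJ. Cyp4a12a and Cyp4a12b were 0.26 apart, and the glucuronosyltransferases Ugt2b38 (0.28 from Cyp4a12a), Ugt2b5 (0.32 from Cyp4a12a) and Ugt2b36 (0.32 from Cyp4a12b) came next. Nearest to Vnn1 were Ccnd1, cyclin D1 of the cell cycle, at 0.86, Cd36, a fatty acid translocase, at 0.86 and Cd83, an immune cell surface protein, at 0.96. Vnn3 lay nearest to Gm4924 (0.47), 4931408D14Rik (0.48) and 1110028F11Rik (0.48), and Cyp4a32 had Zfp982 as its nearest gene outside the family (0.68), again well above background on 0 arrays of C3H/HeJ and WSB/EiJ.

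Cyp4a14 lay furthest from its nearest genes, on a measure that grows with a gene's own range. Its SD over the arrays was 4.07, against 2.15 for Vnn1, 1.63 for Cyp4a10 and 1.1 for Vnn3. The cytochrome Cyp2b13 lay 2.10 from Cyp4a14, and the transporters Slc22a27 and Slc22a26 lay 2.11 and 2.18 from it. These 3 genes were well above background on 0 of 4 arrays in the C3H/HeJ and in the WSB/EiJ control groups, so their profiles rest partly on background. All 3 were well above background on the 4 A/J control arrays, as Cyp4a14 was.

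Genes that PPAR-alpha is known to control were set beside the family, to show whether other targets differed in the same livers. Of 53 such targets outside the family, 13 rose and 1 fell in A/J (limma, adjusted p under 0.05), where 5.92% of all tested genes rose and 4.42% fell. In C3H/HeJ 21 rose and 5 fell, against 18.1% and 27.1%. In WSB/EiJ 10 rose and 32 fell, against 24.6% and 47.6%. With spike-in scaling 23 rose and 12 fell, where 10968 of all 15531 genes were called and 87.5% of these were higher. With quantile normalization 17 rose and 19 fell, where 10095 of all genes were called and 49.6% of these were higher. The median difference over the targets was 0.20 in A/J, 0.17 in C3H/HeJ and -0.59 in WSB/EiJ. Spike-in scaling gave 35 rising targets in A/J and 40 in C3H/HeJ, and quantile normalization 25 in A/J. In A/J the only target that fell, the peroxide-degrading enzyme catalase (Cat), was no longer called when any single array of the A/J groups but control or deficient replicate 4 was left out, and 2 targets fell without control replicate 4. Falling targets in C3H/HeJ numbered 3 without control replicate 2 or without deficient replicate 1 or 2, and 9 without deficient replicate 3 or 4.

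**Figure D4:**
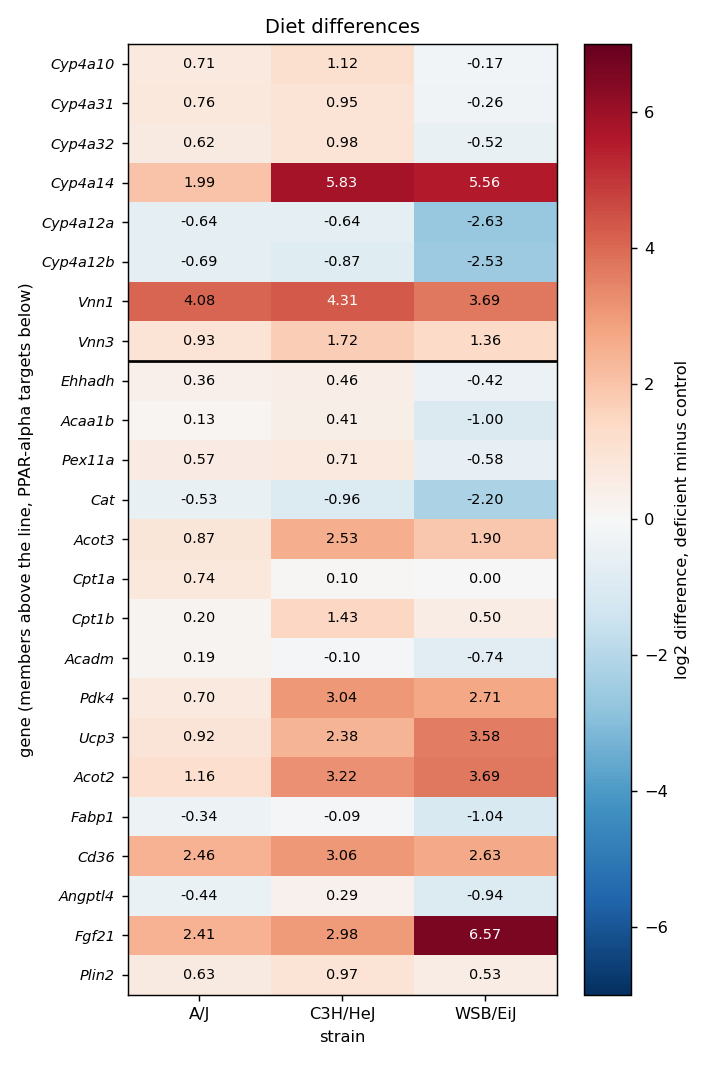
Log2 difference, deficient minus control, in each strain (columns) for the 8 genes (above the line) and 16 PPAR-alpha targets (below), printed in each cell and coloured from blue (lower) to red (higher). Cd36, Fgf21 and Plin2 are positive in all strains, as are Vnn1, Vnn3 and Cyp4a14, whereas Cat is negative in all strains and lowest in WSB/EiJ (-2.20).

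Several targets of fatty acid uptake, storage and signalling rose in every strain. Cd36 rose by 2.46 ± 0.25 in A/J, 3.06 ± 0.25 in C3H/HeJ and 2.63 ± 0.25 in WSB/EiJ. Fgf21, a hormone of the fasting liver, rose by 2.41 ± 0.47, 2.98 ± 0.47 and 6.57 ± 0.47. The lipid droplet protein Cidec rose by 3.22 ± 0.56, 4.89 ± 0.56 and 5.68 ± 0.56, and the droplet coat protein Plin2 by 0.63 ± 0.15, 0.97 ± 0.15 and 0.53 ± 0.15 (its A/J call was lost in a fit of the A/J arrays alone). Of the 15 genes of this list, 6 rose and 0 fell in A/J, against 5.92% and 4.42% of all tested genes. In C3H/HeJ 8 rose and 0 fell, against 18.1% and 27.1%, and in WSB/EiJ 5 rose and 5 fell, against 24.6% and 47.6%. Spike-in scaling gave 8 and 0, 12 and 0, and 8 and 2. Fabp1, the fatty acid binding protein, was among the 5 that fell in WSB/EiJ, by 1.04 ± 0.25. Its call was lost with quantile normalization (-0.06) and spike-in scaling (-0.17).

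Mitochondrial and ketogenic targets were called in both directions in WSB/EiJ, as were all tested genes. Of 18, 5 rose in A/J and 0 fell, against 5.92% and 4.42% of all tested genes. In C3H/HeJ 7 rose and 1 fell, against 18.1% and 27.1%, and in WSB/EiJ 4 rose and 11 fell, against 24.6% and 47.6%. Quantile normalization gave 10 and 0, 11 and 0, and 7 and 6, and spike-in scaling 16 and 0, 13 and 0, and 9 and 2. Ucp3, a mitochondrial carrier, rose by 0.92 ± 0.22, 2.38 ± 0.22 and 3.58 ± 0.22 in A/J, C3H/HeJ and WSB/EiJ, and its A/J call was lost without deficient replicate 1 (0.79). Pdk4, the kinase that shuts off pyruvate dehydrogenase, rose in C3H/HeJ by 3.04 ± 0.43 and in WSB/EiJ by 2.71 ± 0.43, with 0.70 ± 0.43 in A/J (adjusted p = 0.319, limma).

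Peroxisomal targets were mostly lower in WSB/EiJ. Of 20, 2 rose and 1 fell in A/J, against 5.92% and 4.42% of all tested genes. In C3H/HeJ 6 rose and 4 fell, against 18.1% and 27.1%, and in WSB/EiJ 1 rose and 16 fell, against 24.6% and 47.6%. Quantile normalization gave 8 and 1, 10 and 1, and 3 and 10, and spike-in scaling 11 and 0, 15 and 1, and 6 and 8. Catalase fell in WSB/EiJ by 2.20 ± 0.17 and in C3H/HeJ by 0.96 ± 0.17. Acot3, a peroxisomal acyl-CoA thioesterase, was the exception in WSB/EiJ: it rose by 1.90 ± 0.52 there, on control signals above background on 3 of 4 arrays, and by 2.53 ± 0.52 in C3H/HeJ. The WSB/EiJ call of Acot3 was lost with the mean of the gene's probes (1.17) and with normexp background correction (0.68).

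Tests of the difference between diet effects gave 4 of the 53 targets higher and 0 lower in C3H/HeJ than in A/J, with 2.14% and 1.31% of all genes called. In WSB/EiJ relative to A/J 6 were higher and 33 lower (17% and 31.9% of all genes), and relative to C3H/HeJ 2 were higher and 34 lower (9.23% and 16.9%). With spike-in scaling the lower counts were 20 and 15, where 78.6% and 77.9% of all genes called in these comparisons were higher. The 4 of C3H/HeJ fell to 0 without the A/J replicate 4 pair, to 1 without A/J deficient replicate 2 or 4 or C3H/HeJ deficient replicate 2, and to 2 without A/J control replicate 1 or 4, C3H/HeJ control replicate 2, 3 or 4 or C3H/HeJ deficient replicate 1 or 3. Without C3H/HeJ deficient replicate 4, 5 targets were lower in C3H/HeJ. On the control diet 1 target was higher and 14 lower in C3H/HeJ than in A/J (13.8% and 10.8% of all genes), 12 and 15 in WSB/EiJ relative to A/J (27.3% and 18.4%), and 16 and 9 in WSB/EiJ relative to C3H/HeJ (23.3% and 18.3%). Without WSB/EiJ control replicate 3, 6 in place of 12 targets were higher in WSB/EiJ than in A/J.

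The receptor itself and its partners were also measured. Ppara, which encodes PPAR-alpha, fell in WSB/EiJ by 1.11 ± 0.26 (adjusted p = 0.000716, limma), a call lost with spike-in scaling (-0.24). Its difference was 0.34 ± 0.26 in A/J and -0.01 ± 0.26 in C3H/HeJ. Pparg, the adipose-type receptor, rose by 1.26 ± 0.22, 1.51 ± 0.22 and 2.01 ± 0.22 in A/J, C3H/HeJ and WSB/EiJ. Of 16 receptors and cofactors, 1 rose in each strain, against 5.92%, 18.1% and 24.6% of all tested genes in A/J, C3H/HeJ and WSB/EiJ. In the same order 0, 5 and 11 fell, against 4.42%, 27.1% and 47.6%. Quantile normalization gave 1, 2 and 3 rising and 0, 3 and 7 falling, and spike-in scaling 5, 6 and 5 rising and 0, 1 and 1 falling. Med1, a coactivator subunit, fell by 0.85 ± 0.12 in C3H/HeJ and 1.48 ± 0.12 in WSB/EiJ.

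Most other Cyp4 enzymes fell in WSB/EiJ. Of 9 tested Cyp4 genes outside the family (14 listed), 0 rose and 1 fell in A/J, against 5.92% and 4.42% of all tested genes. In C3H/HeJ 1 rose and 7 fell, against 18.1% and 27.1%, and in WSB/EiJ 0 rose and 8 fell, against 24.6% and 47.6%. Spike-in scaling gave 1 and 0, 1 and 2, and 1 and 6. Cyp4v3, an omega-hydroxylase of the same superfamily, fell by 0.81 ± 0.19 in C3H/HeJ and 2.13 ± 0.19 in WSB/EiJ. Cyp4f15 fell by 1.63 ± 0.20 in WSB/EiJ. The C3H/HeJ value of Cyp4v3 was -0.32 with spike-in scaling and no longer called. Among 11 partners of omega-oxidation, 1 rose and 1 fell in A/J, 1 rose and 4 fell in C3H/HeJ, and 1 rose and 9 fell in WSB/EiJ (2 and 0, 3 and 1, and 2 and 4 with spike-in scaling). Aldh3a2, the fatty aldehyde dehydrogenase of the pathway, rose by 1.70 ± 0.26 in C3H/HeJ and by 1.07 ± 0.26 in A/J, the latter not without A/J deficient replicate 3 (0.92), and gave 0.50 ± 0.26 in WSB/EiJ. Por, the reductase that supplies electrons to P450 enzymes, fell in WSB/EiJ by 1.38 ± 0.26, a call lost with spike-in scaling (-0.51), and Adh4, an alcohol dehydrogenase, fell there by 1.73 ± 0.14.

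Genes around the vanin reaction make, degrade or transport coenzyme A or handle cysteamine. Of 16, 1 rose and 0 fell in A/J, against 5.92% and 4.42% of all tested genes. In C3H/HeJ 1 rose and 7 fell, against 18.1% and 27.1%, and in WSB/EiJ 2 rose and 10 fell, against 24.6% and 47.6%. With spike-in scaling the counts were 6 and 0, 6 and 2, and 7 and 4. Slc5a6, the sodium-dependent transporter of pantothenate and biotin, rose in every strain, by 1.25 ± 0.15 in A/J, 0.76 ± 0.15 in C3H/HeJ and 0.75 ± 0.15 in WSB/EiJ. Nudt7, the peroxisomal coenzyme A hydrolase, fell by 1.10 ± 0.20 in C3H/HeJ and 2.84 ± 0.20 in WSB/EiJ. Pank1, a pantothenate kinase, fell in WSB/EiJ by 2.09 ± 0.26.

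**Figure D5:**
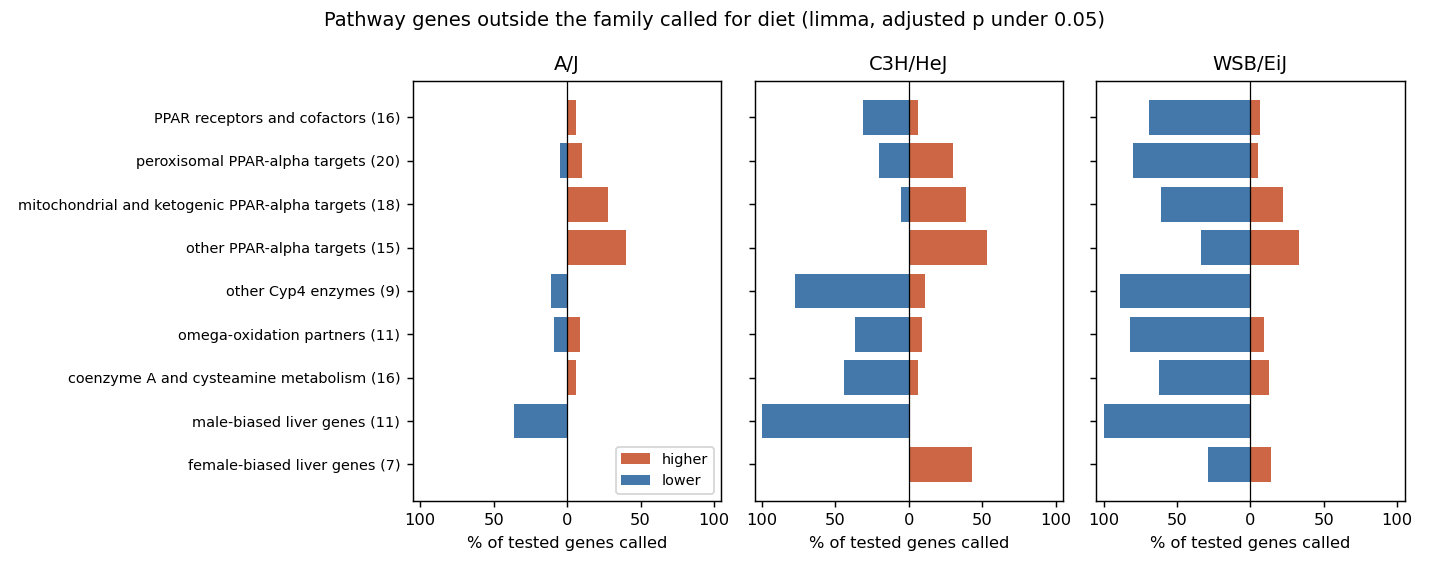
Percent of the tested genes of each list (rows, number tested in brackets) called higher (right of 0) or lower (left of 0) on the deficient diet in A/J, C3H/HeJ and WSB/EiJ, by limma at an adjusted p under 0.05. Male-biased genes are lower in 4, 11 and 11 of 11, and peroxisomal targets in 16 of 20 in WSB/EiJ. Of all tested genes, 4.42%, 27.1% and 47.6% are lower in A/J, C3H/HeJ and WSB/EiJ.

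Cyp4a12a and Cyp4a12b are known as male-biased, and other genes with that bias were lower on the deficient diet as well. Of 11 tested (12 listed), 0 rose. In A/J, C3H/HeJ and WSB/EiJ 4, 11 and 11 fell, against 4.42%, 27.1% and 47.6% of all tested genes. Under spike-in scaling 2, 8 and 9 fell, and median centring gave 2 in A/J. Elovl3, a fatty acid elongase, fell by 2.68 ± 0.55, 2.90 ± 0.55 and 7.45 ± 0.55 in A/J, C3H/HeJ and WSB/EiJ, and the steroid dehydrogenase Hsd3b5 by 1.49 ± 0.41, 2.32 ± 0.41 and 5.92 ± 0.41. The A/J call of Hsd3b5 was lost without control replicate 2 or deficient replicate 3. Ugt2b38 fell by 1.02 ± 0.13 in C3H/HeJ and 2.43 ± 0.13 in WSB/EiJ. On the control diet 9 of the 11 were higher in WSB/EiJ than in A/J (27.3% of all genes) and 6 in C3H/HeJ than in A/J (13.8%), with 0 lower in either (18.4% and 10.8%). Of 7 tested female-biased genes, 0 rose in A/J, 3 in C3H/HeJ and 1 in WSB/EiJ, against 5.92%, 18.1% and 24.6% of all tested genes. In WSB/EiJ 2 fell, against 47.6%. Spike-in scaling gave 4, 4 and 3 rising, with 1 falling in WSB/EiJ, and normexp with quantile normalization gave 3 rising in A/J. On the control diet 5 of these 7 were lower in C3H/HeJ than in A/J (10.8% of all genes) and 5 in WSB/EiJ (18.4%). In the same order 0 and 1 were higher (13.8% and 27.3%). Some of these control signals were at background: Cyp2b13 was well above it on 0 control arrays of C3H/HeJ and WSB/EiJ.

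With percentile scaling, hepatocyte markers moved the same way as the Cyp4a12 genes. Of 12 such markers 2 fell in A/J, 11 in C3H/HeJ and 12 in WSB/EiJ, against 4.42%, 27.1% and 47.6% of all tested genes. The summed level of these markers was 10000 to 10800 on WSB/EiJ control arrays and 4380 to 5380 on deficient arrays. In A/J the sums were 7660 to 10100 and 6210 to 8560, and in C3H/HeJ 7740 to 10400 and 4860 to 7880. The median difference of the 12 markers was -0.45 in A/J, -0.53 in C3H/HeJ and -1.26 in WSB/EiJ. Spike-in scaling moved the median of all genes from -0.05 to 0.31, from -0.12 to 0.37 and from -0.29 to 0.58 in these strains. Marker counts and sums are given with percentile scaling alone, so the falls may depend on it. The part of the hepatocyte markers in the Cyp4a12 values was not tested. Of 6 kidney tubule markers, which would mark the other main site of these enzymes, 2 were tested. Of these 0 fell in A/J, 1 in C3H/HeJ and 2 in WSB/EiJ, none rose, and Umod was above background on 0 arrays. The summed level of the kidney markers was 1.2 to 1.71 on WSB/EiJ control arrays and 0.294 to 0.924 on deficient arrays, and at most 0.345 in A/J and C3H/HeJ, and its part in the Cyp4a12 values was not tested either.

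For the start sites of these genes, the RefSeq promoter table (GRCm38.p6) held Cyp4a32 and Vnn3. The 250 bases before each start were searched on both strands for the nuclear receptor half-site AGGTCA and for the DR1 element (2 half-sites 1 base apart), to which PPAR-alpha binds with its partner RXR, allowing 3 mismatches. Neither promoter held the half-site, which is in 14.0% of all promoters of that length. Each held 1 DR1 match with 3 mismatches, and such a match is in 21.3% of all 32851 promoters and in 29.6% of 54 promoters of PPAR-alpha targets. A match of this kind is a description of letters and shows no binding.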

How the data were processed

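Total liver RNA was labelled with Cy3 from 0.5 ug per sample, per the labels' protocols, and hybridised to Agilent mouse arrays on 3 slides. Spot intensity values come from Agilent Feature Extraction 10.7, run by the authors per the file headers, with background subtraction and detrending within the array and no scaling between arrays. Other columns hold yes-or-no quality calls on each spot, per the file headers. Normalized intensities in the authors' deposited file equalled these signals times a constant for each array.

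Spots flagged as outliers were left out (3332 over all arrays) and replicate spots averaged. Probes entered the tests when some group had all 4 of its arrays well above background (28149 probes), and a gene took its brightest probe. Genes were named by RefSeq accession (26762 probes), symbol (3819) or synonym (639) or kept the file's name (1687), and 22774 probes without a name were left out. One limma 3.58.1 model in R 4.3.3 (with package data.table, version 1.17.8) with 6 group means was fitted to 24 arrays, with 2-sided moderated tests and Benjamini-Hochberg adjustment over all 15531 genes at 0.05. The fit was tested on simulated data. The number of arrays limits the precision.

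The members, gene lists and named genes were chosen with earlier results of these data known. Named genes are the members, a panel of pathway genes, up to 2 genes per list and strain with the lowest adjusted p, and the 3 nearest genes of each member; values of 2 of these genes are not reported here. Alternatives changed the scaling (quantile, median, normexp with offset 50, the deposited normalized values), the background filter (none, or all 24 arrays required), the probe rule (mean over probes), the model (a block for slide, a block for replicate number, the compared groups alone, array weights) and the arrays (each left out). Spike-in scaling and the left-out A/J replicate 4 pair were chosen after seeing the data.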

Additional observations from a re-analysis of the deposited data

Results flagged for a closer look

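Over 264 groups of 4 arrays (the 8 genes and the reported pathway panel), 12 held an array whose gap to the nearest other exceeded 0.829 of the group's range. Chance flags about 1 in 20 groups. Among the family, Cyp4a12a on WSB/EiJ control replicate 1 read 6.39 against 6.60 to 6.64 on the others, and Vnn3 on A/J deficient replicate 1 read 1.49 against 1.74 to 1.79.

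In A/J control replicate 4, Ppara (4.74 against 6.08 to 6.30), Cyp4f14 (6.62 against 7.27 to 7.36) and Por (5.42 against 6.02 to 6.13) were low. In C3H/HeJ control replicate 2, Ppargc1a was low (0.73 against 2.07 to 2.31) and Pank1 high (4.59 against 3.39 to 3.52). In C3H/HeJ deficient replicate 4, Pdk4 (-0.43 against 1.93 to 2.09) and Fgf21 (2.34 against 3.29 to 3.33) were low. In WSB/EiJ deficient replicate 3, Ehhadh (5.35 against 4.67 to 4.73) and Cyp4f15 (5.50 against 4.75 to 4.85) were high and Fgf21 (3.66 against 4.87 to 4.92) was low.

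Diet effects of opposite sign, both called, were found for 3 genes outside the family, with limma's test of the difference. Pex11a, a peroxisome division gene, fell by 0.58 in WSB/EiJ and rose by 0.57 in A/J and 0.71 in C3H/HeJ, differences of -1.14 (adjusted p = 0.000236) and -1.29 (adjusted p = 0.000226). Its WSB/EiJ value was 0.29 with spike-in scaling, and its A/J call was lost without control replicate 2 or 4 or deficient replicate 1 or 3. Ehhadh, the peroxisomal bifunctional enzyme, gave -0.42 in WSB/EiJ and 0.46 in C3H/HeJ, a difference of -0.87 (adjusted p = 0.00898), and its WSB/EiJ value was 0.45 with spike-in scaling. The C3H/HeJ call of Ehhadh was lost without control replicate 2 (0.42) or deficient replicate 3 (0.30) and with the compared groups alone. Its WSB/EiJ call was lost with median centring (-0.26) and without control replicate 3 or 4 or deficient replicate 1, 2 or 4 (-0.39 to -0.35). Cyp2b9, a female-biased cytochrome, gave -3.55 in WSB/EiJ, where 1 of 4 deficient arrays was well above background, and 3.16 in C3H/HeJ, a difference of -6.71 (adjusted p = 6.99e-06).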

How the results depend on the processing

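Cyp4a14, Vnn1 and Vnn3 stayed higher and Cyp4a12a and Cyp4a12b lower on the deficient diet in all strains under each alternative that kept them (Cyp4a14 was absent with probes above background on all arrays), left-out arrays included. Of 485 values of the family's differences, 460 moved by less than the spread between arrays and 25 by more. Part of the 460 was fixed in advance, since leaving out 1 of 4 arrays cannot shift a mean beyond that spread. The compared groups alone and the replicate block leave these differences unchanged. The 460 is therefore no measure of stability. With each array left out, counts of the family without overlap ran from 0 to 2 lower in A/J. In C3H/HeJ they ran from 1 to 2 lower and from 4 to 6 higher. With the same arrays left out, the counts stayed at 6 higher in A/J and at 3 higher and 2 lower in WSB/EiJ. Leaving out an array can keep or raise a count without overlap but cannot lower it. The counts under the other alternatives are not given here, and they were not shown to be unchanged.

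For the 53 PPAR-alpha targets, counts that moved by over 1.5 times follow; the cause was not tested. Quantile normalization gave 25 rising in A/J, 1 falling in C3H/HeJ, 17 rising and 19 falling in WSB/EiJ, and, on the control diet, 3 higher and 24 lower in WSB/EiJ than in A/J. Normexp with quantile normalization gave 25 rising and 0 falling in A/J, 2 falling in C3H/HeJ and 20 falling in WSB/EiJ. It gave 2 higher diet effects in C3H/HeJ than in A/J, 1 in WSB/EiJ than in C3H/HeJ, and on the control diet 2 higher and 25 lower in WSB/EiJ than in A/J and 15 lower than in C3H/HeJ. Median centring gave 0 falling in A/J and 3 in C3H/HeJ, and the authors' deposited values gave 0 falling in A/J. Spike-in scaling, chosen after seeing the data, gave 35 rising and 0 falling in A/J, 40 and 1 in C3H/HeJ, 23 and 12 in WSB/EiJ, 1 higher diet effect in C3H/HeJ than in A/J, 20 and 15 lower diet effects in WSB/EiJ than in A/J and C3H/HeJ, and 3 higher in WSB/EiJ than in A/J on the control diet. Without a background filter 0 fell in A/J and 2 diet effects were higher in C3H/HeJ than in A/J. Probes above background on all arrays gave 6 rising in WSB/EiJ and 2, 3 and 1 higher diet effects in C3H/HeJ over A/J, WSB/EiJ over A/J and WSB/EiJ over C3H/HeJ. Slide as a block gave 2 higher diet effects in C3H/HeJ than in A/J. With only the compared groups these were 1, and 2 targets fell in C3H/HeJ. Array weights gave 2 falling in A/J, 10 in C3H/HeJ, 4 lower diet effects in C3H/HeJ than in A/J and 14 lower in WSB/EiJ than in C3H/HeJ on the control diet. Without both A/J replicate 4 arrays 0 diet effects were higher in C3H/HeJ than in A/J.

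With each array left out, rising targets numbered 9 to 14 in A/J, 15 to 20 in C3H/HeJ and 9 to 11 in WSB/EiJ, and falling ones 0 to 2, 3 to 9 and 30 to 32. Higher diet effects numbered 1 to 4 (C3H/HeJ over A/J), 6 (WSB/EiJ over A/J) and 2 (WSB/EiJ over C3H/HeJ), and lower ones 0 to 5, 33 to 34 and 31 to 37. On the control diet 1, 6 to 12 and 13 to 17 targets were higher and 12 to 14, 12 to 16 and 8 to 9 lower.

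Signs turned for some genes. With quantile normalization these were Creb3l3 (0.32) and Acadm (0.27) in C3H/HeJ and Ehhadh (0.13) and Acadm (0.01) in WSB/EiJ. With normexp they were Creb3l3 (0.43) and Acadm (0.28) in C3H/HeJ and Ehhadh (0.13), Acadm (0.03) and Fabp1 (0.01) in WSB/EiJ. With spike-in scaling they were Creb3l3 in A/J (0.35), Creb3l3 (0.49), Acadm (0.39), Hsd17b4 (0.14), Pank4 (0.04) and Coasy (0.06) in C3H/HeJ, and Rxra (0.28), Ehhadh (0.45), Pex11a (0.29), Acadm (0.13), Cdo1 (0.01), Pank4 (0.28) and A230038B01Rik (0.07) in WSB/EiJ.

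Replicate numbers gave no sign of pairing: the correlation of same-numbered deviations exceeded 0.1 in 0 of 12 pairs (range -0.35 to 0.07). Whether the samples were paired is not settled by these correlations. With the replicate number as a block, 14 targets rose in A/J, 21 in C3H/HeJ and 10 in WSB/EiJ.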
